A study of Mus musculus with 20 samples.

Results

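The 10 genes described here, Calcoco2, Zbtb42, Cbr3, Zc3h12a, S100a6, Mcf2, Mybpc2, Parp8, Chdh and Zfp750, were chosen by their day 1 level in a mouse cell line carrying 3 transgenes, BP14A, which stood apart from that of lines labelled as carrying Blimp1 alone (B) or Prdm14 alone (P14). They were read at 11 probe sets out of 45101 on the array, and they are 10 of 18193 genes named by its annotation. The day 1 levels of lines BP14A, B and P14 are therefore given as a description with no test, and tests are kept for the EpiLCs, the parental line and the line labelled A. RNA was measured on 20 arrays, 2 in each of 10 groups that cross 5 lines with 2 stages.

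By their labels, all lines derive from male BVSCR26rtTA embryonic stem cells of mixed C57BL/6 and 129 background, which carry Blimp1-mVenus and stella-ECFP reporters and the doxycycline-responsive activator rtTA at Rosa26. The parental line carries nothing more. Line B adds Avi-Blimp1, line P14 adds 3xFLAG-Prdm14, line A adds V5-Tfap2c, and BP14A adds all 3, each driven by a doxycycline-responsive tetOx8-mCMV promoter on a piggyBac vector. The first stage was epiblast-like cells (EpiLCs, which resemble the mouse epiblast soon after implantation) after 36 h of differentiation, without doxycycline. Day 1 samples were whole, unsorted aggregates begun with 2000 cells per well and kept for 24 h in GK15 medium with 1.5 µg/ml doxycycline, in every line including the parental line. Every line was grown from 1 clone, so an effect of the clone and of its transgenes cannot be told apart, and aggregates without doxycycline were not analysed here. In whole aggregates, fewer cells with a transcript and less transcript per cell cannot be told apart.

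Blimp1 (the protein of Prdm1), Prdm14 and Tfap2c (AP2γ) are transcription factors needed for the founding of primordial germ cells. Blimp1 is best known as a repressor of the somatic programme, Prdm14 supports pluripotency and the loss of DNA methylation, and AP2γ acts with both in the early germ line. The 10 genes have unrelated roles. Calcoco2 encodes the autophagy receptor NDP52, S100a6 a small calcium-binding protein, Chdh the mitochondrial choline dehydrogenase and Zfp750 a zinc finger factor of epidermal differentiation. Zc3h12a encodes the ribonuclease Regnase-1, which degrades inflammatory messenger RNAs, and Cbr3 a carbonyl reductase. Mcf2 encodes the proto-oncoprotein Dbl, Mybpc2 the fast skeletal form of myosin-binding protein C, Parp8 a member of the ADP-ribosyltransferase family and Zbtb42 a BTB zinc finger protein.

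Levels are deposited log2 values, which ran from 0 to 13.83. The filter level of 3.95 is the 40th percentile of all values, and a gene entered the test when its highest group mean reached it. A gene is called where its log2 change is 1 or more in either direction and its adjusted p (limma, Benjamini-Hochberg over 14010 genes) is below 0.05. Replicate arrays correlated at Pearson r of 0.966 to 0.976 over all probe sets, which are not independent replicates. All 6 epiblast markers lay above the filter level in all 10 groups, and Fgf5 stood at 10.34 ± 0.08 (SD, n = 2) in parental EpiLCs. Cell state markers stood apart from the parental line on day 1 in BP14A, in P14 and, less far, in B. The summed log2 level of 6 early germ cell markers was 12.71 to 12.79 in BP14A, 11.58 to 11.76 in P14 and 10.47 to 10.94 in B. In the parental line it was 8.62 to 8.72, for a list that holds the 3 genes supplied as transgenes. Over the other 3 germ cell markers it was 11.68 to 11.80 in BP14A, 10.28 to 10.41 in P14, 9.36 to 9.92 in B and 8.08 to 8.20 in the parental line. The sum of 6 naive pluripotency markers was 11.32 to 11.42 in BP14A, 11.55 to 11.60 in P14, 9.59 to 9.64 in B and 9.24 to 9.27 in the parental line. That of the epiblast markers was 13.75 to 13.82 in BP14A, at most 14.003 in P14, 14.25 to 14.29 in B and 14.47 to 14.55 in the parental line. The epiblast markers did not move alike. In BP14A against the parental line, Sox2 was higher (12.55 against 10.71) and Pou5f1 level (12.50 against 12.49). Pou3f1 (6.81 against 11.68), Dnmt3b (9.87 against 13.21), Otx2 (8.93 against 10.68) and Fgf5 (9.67 against 10.59) were lower. Summed markers of fibroblasts or feeder cells were 7.35 to 7.42 in BP14A and 7.90 to 7.91 in the parental line, and no marker had a mean of 0. Singly, Dcn (6.18 against 7.245), Postn (1.725 against 2.96) and Col1a1 (2.305 against 2.49) had lower means in BP14A. Col1a2 (5.615 against 5.415), Col3a1 (4.525 against 4.265) and Lum (3.77 against 3.35) had higher ones. The part of these shifts in the values below was not tested. Tfap2c read 11.57 ± 0.02 on day 1 in BP14A and 5.94 ± 0.20 in the line labelled A (SD, n = 2). The parental line read 6.34 ± 0.06, so the Tfap2c probe set does not show the transgene of line A. It also read 9.60 ± 0.30 in B and 10.81 ± 0.15 in P14, lines labelled as carrying no Tfap2c transgene. The level in BP14A thus does not show that transgene either. Prdm14 read 3.51 ± 0.42 on day 1 in P14 and 4.04 ± 0.90 in BP14A, against 3.63 ± 0.06 in the parental line (SD, n = 2), so its probe set shows the transgene in neither line. Prdm1 read 6.36 ± 0.16 on day 1 in B, 8.67 ± 0.06 in BP14A and 7.31 ± 0.11 in P14, against 4.96 ± 0.08 in the parental line. P14 is labelled as carrying no Blimp1 transgene, so these levels do not show that transgene in B or BP14A. Nothing in the sources used here says whether these probe sets can read the transgenes. The names B, P14 and A, the last written as the line labelled A, therefore rest on the labels. So do the presence of each of the 3 transgenes in BP14A and every direction drawn from these lines.

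The lines also differed in 2 Y-linked genes, at both stages. On day 1 Uty read 8.56 to 8.57 in the parental arrays, 8.31 to 8.34 in BP14A and 8.47 to 8.65 in the line labelled A, but 2.19 to 2.61 in B and 4.06 to 4.66 in P14. Eif2s3y read 9.16 to 9.38 in the parental arrays, 6.5 to 6.51 in BP14A and 7.07 to 7.44 in the line labelled A, and 0.71 to 1.25 in B and 2.17 to 2.39 in P14. In EpiLCs the 2 B arrays also read lowest, at 2.29 to 2.94 for Uty and 1.14 to 2.22 for Eif2s3y, and P14 next lowest, at 4.25 to 4.61 and 4.51 to 4.71. Both genes are thus lower in B and P14 than in BP14A, the same comparison by which the 10 genes were chosen, and this difference between clones cannot be told apart there from that of the transgenes. Kdm5d, also Y-linked, read from 3.45 to 4.87 on all day 1 arrays, near the filter level, with all lines overlapping. These genes were picked with their values in view.

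All 10 genes passed the filter, but several did so narrowly. Cbr3, S100a6, Mcf2 and Chdh were the 4 whose means lay at or above the filter level in all 5 day 1 groups. For Zbtb42 and Mybpc2, both the parental and the BP14A day 1 means lay below it. Zbtb42 passed only through the day 1 mean of line B, 4.15, which is an array group the choice of genes used. The parental day 1 means of Calcoco2 and Zfp750, and the BP14A day 1 means of Zc3h12a and Parp8, also lay below it, so sizes for those 6 genes are approximate.

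The level pattern that singles out these genes was shared with others. Against each of the parental, B, P14 and A lines on day 1, BP14A was called in the same direction for 54 of 14010 genes (0.385%). For 27 of them (0.193%), neither B nor P14 was called against the parental line, and all 10 genes are among these 27. This count follows from how the genes were chosen and supports nothing. Ordered by the difference between BP14A and the parental line, the smallest of the 10 was Zfp750 at 1.90, and the next of the 27 was Kctd15 at 1.81. Rhox6 (3.31), Rhox9 (3.21) and Hey1 (1.92) had larger differences than Zfp750 and are not among the 10. These comparisons share the BP14A day 1 arrays. Called against BP14A on day 1 were 6.62% of all genes for the parental line, 6.46% for B and 7.02% for the line labelled A. Against the parental line, B had 2.59% of genes called and P14 had 5.37%. Called against parental with neither B nor P14 called were 297 genes (2.12%), and called the same way against B and P14 were 67 (0.478%). The comparison of BP14A with P14 had 146 calls (1.04%) in the fit over all arrays, and 0 when only its 4 arrays were fitted by limma, with 2127 genes at an unadjusted p under 0.05.

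**Figure D1:**
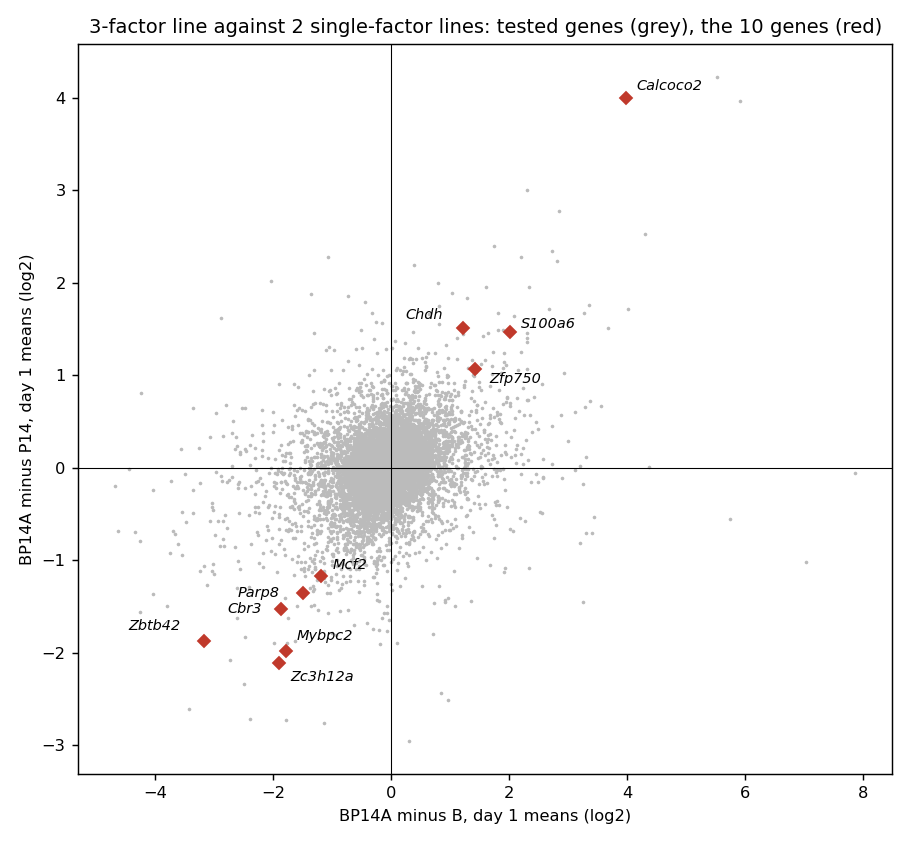
Difference in day 1 means (log2) between BP14A and B on the horizontal axis and between BP14A and P14 on the vertical axis, for all 14010 tested genes (grey) and the 10 genes (red diamonds). Both axes share the BP14A arrays; 4 of the 10 genes lie at the upper right and 6 at the lower left, with Calcoco2 farthest out at 3.98 and 4.00.

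Promoters were examined because all 3 transgenes encode factors that bind DNA, and 8 of the 10 genes matched the RefSeq promoter table (build GRCm38.p6), with 11 start sites. Each promoter in the table spans 300 bases, of which the last 50 lie after the start site. The AP-2 motif GCCNNNGGC, read on both strands, occurred in promoters of Zc3h12a and Chdh, 3 of the 11 start sites, beside 16.6% of all 32851 promoters. The core Blimp1 motif AGNGAAAG (8.63% of all promoters) and the Prdm14 motif GGTCTCTAA (0.256%) did not occur in these windows. A match here is a run of letters and not a bound site. The upstream 250 bases of Zc3h12a and Chdh (its first start site in the table) are shown because they hold an AP-2 match, in capitals, which lies 125 and 202 bases before the start site. Those of Cbr3 and S100a6 are shown because their day 1 differences had the smallest standard errors among the lower and the higher genes.
Zc3h12a, chr4:125127882-125128131, minus strand: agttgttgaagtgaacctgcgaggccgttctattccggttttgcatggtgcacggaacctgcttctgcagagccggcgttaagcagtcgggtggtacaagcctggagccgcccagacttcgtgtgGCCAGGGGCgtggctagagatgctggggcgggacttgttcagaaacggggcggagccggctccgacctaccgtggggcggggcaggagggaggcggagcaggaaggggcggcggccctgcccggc
Chdh, chr14:30008750-30008999, plus strand: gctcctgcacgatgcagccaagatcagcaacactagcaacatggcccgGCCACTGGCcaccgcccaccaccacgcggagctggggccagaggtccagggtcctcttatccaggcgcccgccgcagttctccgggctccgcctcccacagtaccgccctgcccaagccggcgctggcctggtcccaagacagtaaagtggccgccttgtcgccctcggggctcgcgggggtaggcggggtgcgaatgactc
Cbr3, chr16:93682969-93683218, plus strand: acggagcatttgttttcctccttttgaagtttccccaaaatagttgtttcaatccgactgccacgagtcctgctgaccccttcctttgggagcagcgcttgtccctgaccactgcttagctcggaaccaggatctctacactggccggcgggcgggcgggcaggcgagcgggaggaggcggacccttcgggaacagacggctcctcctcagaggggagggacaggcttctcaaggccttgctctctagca
S100a6, chr3:90612644-90612893, plus strand: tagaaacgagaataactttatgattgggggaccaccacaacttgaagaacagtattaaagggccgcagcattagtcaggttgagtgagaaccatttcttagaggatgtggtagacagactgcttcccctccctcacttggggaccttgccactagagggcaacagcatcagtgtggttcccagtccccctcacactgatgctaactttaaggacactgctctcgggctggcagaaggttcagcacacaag

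The promoters differed in base composition. GC content over the 300 bases was 49.3% for S100a6, 65.7% for Zc3h12a, 72.3% for Parp8 and 74.7% for Zbtb42, beside a median of 52.7% over all promoters. The observed-to-expected CpG ratio was 0.33 for S100a6 and 0.34 for Mybpc2, near the median of 0.38, and 0.86 for Zc3h12a, 0.95 for Parp8 and 0.96 for Zbtb42. S100a6 thus has the promoter poorest in G and C among the single-promoter genes, and genes that were lower in BP14A had both CpG-poor (Mybpc2) and CpG-rich promoters (Parp8, Zbtb42, Zc3h12a).

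Calcoco2 (NDP52), S100a6, Chdh and Zfp750 were higher in the 3-factor line on day 1. Calcoco2 read 6.61 and 6.87 in BP14A, 4.22 and 3.67 in the parental line, 2.57 and 2.94 in B, 1.84 and 3.64 in P14, and 4.08 and 2.17 in the line labelled A. Both BP14A arrays lay above the other 8 day 1 arrays, as both lay beyond all 8 on one side for each of the 10 genes (16% of all genes), while the pairs of P14 and of the line labelled A were spread widely. Its difference from the parental line was 2.80 ± 0.60 (limma SE) on the log2 scale. All 3 single-factor means lay below the parental mean, on the other side from BP14A.

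S100a6, the small EF-hand protein, lay well above the filter level in every group. It read 8.93 and 9.19 in BP14A on day 1, 6.69 and 6.75 in the parental line, 6.79 and 7.30 in B, 7.61 and 7.56 in P14, and 7.20 and 7.00 in the line labelled A. BP14A stood above every other day 1 array by more than 1 log2 unit, at a difference of 2.34 ± 0.19 (SE) from the parental line. The arrays of B, P14 and the line labelled A all lay above both parental arrays too, P14 by 0.87 on average.

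Chdh, which starts the breakdown of choline to betaine and has AP-2 matches at 2 of its 3 start sites, read 6.60 and 7.14 in BP14A on day 1 against 4.83 and 5.09 in the parental line. It read 5.45 and 5.86 in B, 5.23 and 5.49 in P14, and 4.84 and 4.48 in the line labelled A. B and P14 lay between the parental and the 3-factor arrays without overlap, and BP14A exceeded the parental line by 1.91 ± 0.33 (SE). The suffix of the Chdh probe set marks probes that can match more than 1 transcript, so its signal may not be of this gene alone.

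Zfp750, a regulator of late keratinocyte genes, lay near the filter level. It read 5.20 and 4.94 in BP14A on day 1, 3.48 and 2.86 in the parental line, 3.55 and 3.74 in B, and 4.15 and 3.85 in P14. The line labelled A had the lowest arrays, 1.91 and 2.14, so the 5 day 1 means spanned 3.05 log2 units. BP14A was 1.90 ± 0.24 (SE) above the parental line.

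Zc3h12a, Cbr3, Mcf2, Mybpc2, Parp8 and Zbtb42 were lower in the 3-factor line on day 1. Cbr3, a reductase of quinones and other carbonyl compounds, read 8.08 and 7.87 in BP14A, 10.43 and 10.38 in the parental line, 9.84 and 9.84 in B, 9.57 and 9.43 in P14, and 10.04 and 10.27 in the line labelled A. None of the 5 pairs of arrays overlapped another. BP14A was 2.43 ± 0.09 (SE) below the parental line, about 5.39-fold on a linear scale.

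Mcf2, the gene of Dbl, read 6.82 and 6.39 in BP14A and 8.63 and 8.71 in the parental line on day 1. B read 7.59 and 7.99, P14 read 7.67 and 7.87, and the line labelled A read 8.44 and 8.78, a pair that overlaps the parental one. BP14A lay 2.06 ± 0.18 (SE) below the parental line, with B and P14 in between.

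Zc3h12a (Regnase-1), with an AP-2 match in its promoter, has 2 probe sets, and they differed. At the brighter, BP14A read 3.27 and 3.59 on day 1 and the parental line 5.53 and 6.01, a difference of 2.34 ± 0.26 (SE), while B read 5.59 and 5.04, P14 read 5.38 and 5.71 and the line labelled A read 5.89 and 5.68. At the dimmer probe set BP14A read 4.17 and 3.87, inside the range of the other day 1 arrays, which ran from 2.81 to 4.97. There the BP14A mean was 0.30 below the parental mean and 0.73 above that of the line labelled A. With the probe sets averaged, the difference of BP14A from the parental line was −1.32 instead of −2.34, and from the line labelled A −0.81 instead of −2.35.

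**Figure D2:**
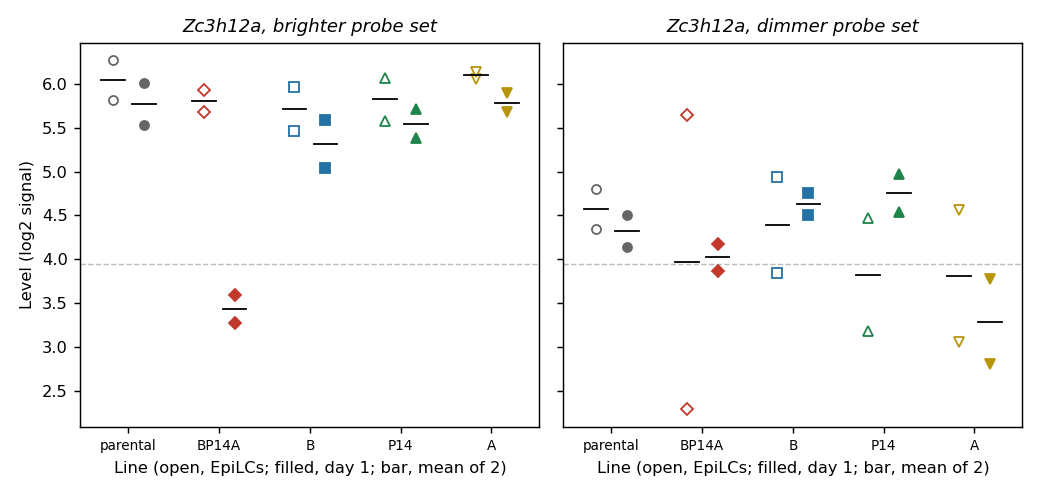
Level (log2 signal) of Zc3h12a on each of the 20 arrays at its 2 probe sets, by line; open symbols are EpiLCs, filled symbols day 1, bars the mean of 2 arrays, and the dashed line the filter level of 3.95. The BP14A day 1 arrays stand alone at 3.27 and 3.59 on the left and lie among the other lines at 4.17 and 3.87 on the right.

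Parp8 read 3.09 and 2.55 in BP14A on day 1, 4.76 and 4.81 in the parental line, 4.41 and 4.21 in B, 4.47 and 3.89 in P14, and 4.45 and 4.12 in the line labelled A. All 3 single-factor pairs lay below the parental pair and above the BP14A pair. Its difference between BP14A and the parental line was −1.96 ± 0.21 (SE).

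Mybpc2, a protein of the muscle thick filament, was below the filter level on every day 1 array. It read 0.99 and 1.89 in BP14A, 3.50 and 3.36 in the parental line, 3.00 and 3.44 in B, 3.28 and 3.56 in P14, and 2.87 and 3.14 in the line labelled A. No day 1 group reached the filter level, so the difference of −1.99 ± 0.29 (SE) lies within values near background. The summed level of 6 skeletal muscle markers was no higher in BP14A, at 7.09 to 7.13 beside 7.31 to 7.48 in parental day 1 arrays. Singly, Myog (2.16 against 0.82) and Ckm (4.63 against 4.50) had higher means in BP14A, and Myod1, Myh3, Des and Ttn lower ones. None of these markers had a mean of 0 in either group, and their part in the Mybpc2 difference was not tested.

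Zbtb42 read 0.73 and 1.21 in BP14A on day 1, 3.75 and 3.55 in the parental line, 4.02 and 4.27 in B, 2.25 and 3.43 in P14, and 3.25 and 3.45 in the line labelled A. B lay above the parental pair and P14 and the line labelled A below it, and the P14 arrays were 1.18 apart. BP14A was 2.68 ± 0.34 (SE) below the parental line, a difference between means that both lie below the filter level.

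**Figure D3:**
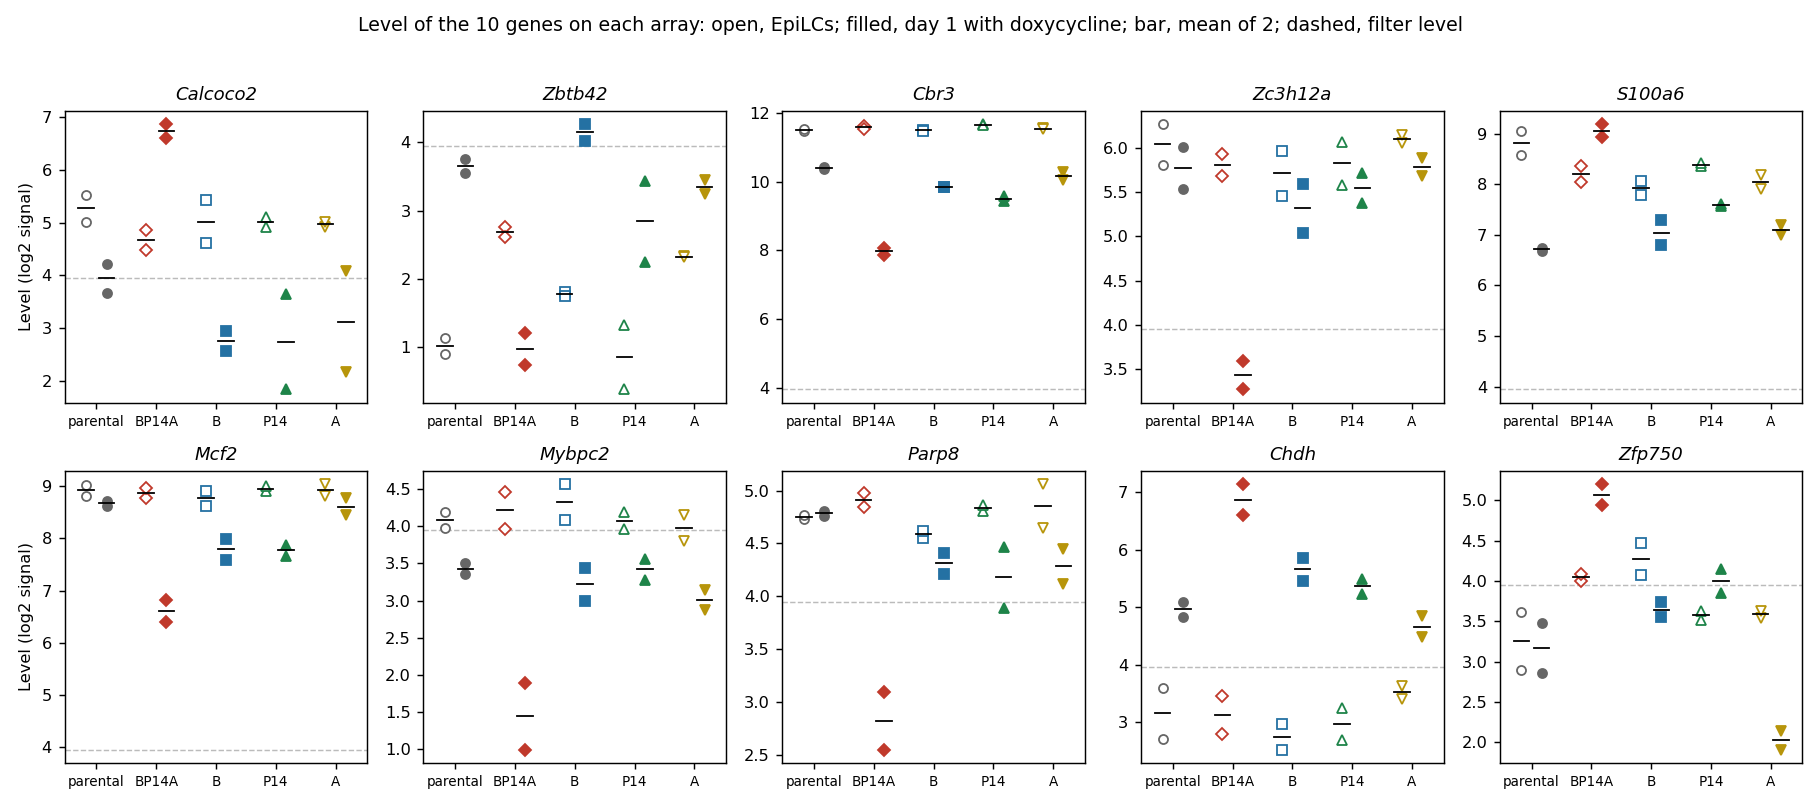
Level (log2 signal) of each of the 10 genes on all 20 arrays, by line; open symbols are EpiLCs, filled symbols day 1 with doxycycline, bars the mean of 2 arrays, and the dashed line the filter level of 3.95. In each panel the 2 filled BP14A diamonds lie beyond the 8 other day 1 arrays, above them for Calcoco2, S100a6, Chdh and Zfp750 and below them for the other 6 genes.

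The single-factor lines lay partly on the side of BP14A for several of these genes, given here as a description. In P14, both arrays lay outside the parental pair on the side of BP14A for 7 of the 10 genes, where 52.4% of all tested genes did so. In B this held for 6 of the 10, beside 38.2% of all genes, and in the line labelled A for 5, beside 20.7%. The choice of the genes used B and P14, and all of these comparisons share the parental arrays, so nothing is read from these counts. By size, the P14 change was 37.2% of the BP14A change for Cbr3, 43.6% for Mcf2, 37.0% for S100a6 and 43.7% for Zfp750. The B change was 42.6% for Mcf2, 36.4% for Chdh and 23.3% for Cbr3. Mybpc2 and Zc3h12a were nearest to the parental level in P14, at 0.5% and 9.6%. The choice of the genes fixes that they were not called in B or P14. By size alone 3 single-factor differences passed 1, those of Calcoco2 in B (−1.19) and P14 (−1.21), opposite in sign to BP14A, and that of Zfp750 in the line labelled A (−1.15). Differences of the sign of BP14A were measured in 8 of 10 genes in B and 9 of 10 in P14, all of them under 1.

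Set beside the sum of the 3 single-factor changes, the BP14A change of Mcf2 was −2.06 against a sum of −1.84, that of Parp8 −1.96 against −1.58, that of Cbr3 −2.43 against −1.72 and that of S100a6 2.34 against 1.57. For Zc3h12a the values were −2.34 and −0.67, for Mybpc2 −1.99 and −0.65, for Zbtb42 −2.68 and −0.62, for Chdh 1.91 and 0.80, and for Zfp750 1.90 and 0.16. Calcoco2 differed in sign, at 2.80 against a sum of −3.21. Mcf2 and Parp8 thus lay near the sum and Calcoco2 farthest from it. The 4 changes share the parental arrays, and no test was made.

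**Figure D4:**
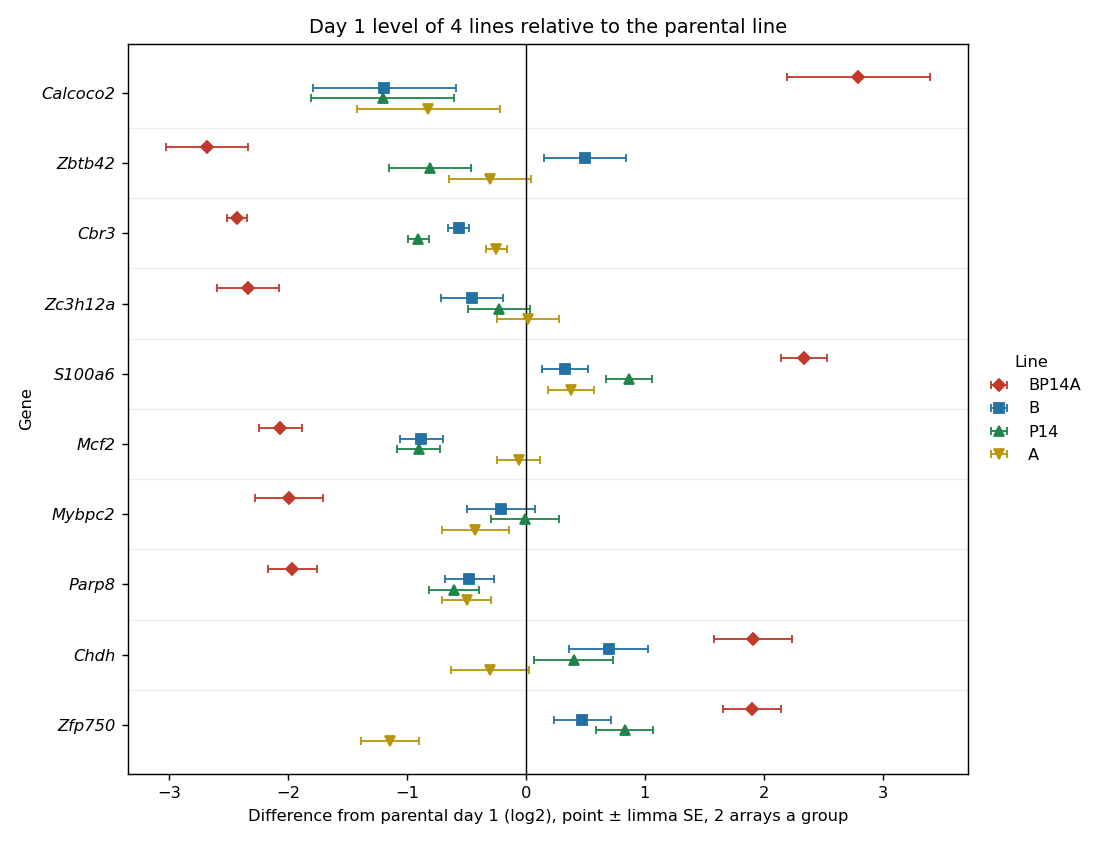
Difference of each line from the parental line on day 1 (log2) for the 10 genes; points are differences of group means of 2 arrays and bars limma standard errors. BP14A (red) lies farthest from 0 for all 10 genes, between −2.68 and 2.80, and B and P14 lie on its side of 0 for 8 and 9 genes. The share of all genes on that side was not counted.

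Before doxycycline, the 10 genes were not called in any line against the parental EpiLCs, a comparison that uses no array by which they were chosen. In BP14A 0 of 10 passed (limma, 3 at an unadjusted p under 0.05), beside 0.0143% of all genes. In B it was 0 of 10 (3 unadjusted; 0.0785% of all genes), in P14 0 of 10 (1 unadjusted; 0.0357%) and in the line labelled A 0 of 10 (2 unadjusted; 0.0286%). Few genes of any kind passed in these comparisons, at most 11 (26 in B without parental EpiLC replicate 2), so the counts do not show that the lines were alike. Both arrays lay outside the parental pair for 6 of the 10 genes in BP14A EpiLCs (33.9% of all genes), 4 in B (38.2%), 3 in P14 (32.8%) and 2 in the line labelled A (31.6%). The BP14A EpiLC mean of Cbr3 was 0.08 above the parental one (95% interval −0.11 to 0.27), that of Mcf2 0.05 below it (−0.45 to 0.35 as a difference) and that of Zc3h12a 0.23 below it (−0.80 to 0.33). The intervals of all 10 genes, these 3 included, leave out the BP14A differences seen on day 1 in the same genes. Those differences chose the genes, so nothing is read from this comparison. The Zc3h12a value is that of its brighter probe set. At the dimmer one, the BP14A EpiLC arrays read 5.64 and 2.29 and the parental ones 4.34 and 4.80.

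Zbtb42, S100a6 and Zfp750 had the largest EpiLC differences. Zbtb42 read 2.76 and 2.61 in BP14A EpiLCs, 1.13 and 0.90 in parental EpiLCs, 1.81 and 1.75 in B, 1.33 and 0.38 in P14 and 2.33 and 2.32 in the line labelled A. BP14A EpiLCs thus had the highest Zbtb42 readings, 0.36 above those of the line labelled A and 1.67 ± 0.34 above the parental ones (SE, limma adjusted p = 0.215), all of them below the filter level. S100a6 read 8.58 and 9.05 in parental EpiLCs and from 7.79 to 8.42 in the other 4 lines, with BP14A 0.62 ± 0.19 (SE, adjusted p = 0.526) below the parental line, opposite in sign to day 1. Zfp750 was 0.79 ± 0.24 (SE, adjusted p = 0.521) above the parental line in BP14A EpiLCs and 1.02 ± 0.24 (SE, adjusted p = 0.152) above it in B. Without parental EpiLC replicate 2, Zfp750 was called in B at 1.39 (limma adjusted p = 0.0342).

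From EpiLCs to day 1, the parental line gives the change that comes with aggregation in doxycycline medium in cells with none of the 3 transgenes, and 4 of the 10 genes were called there, beside 6.57% of all genes. S100a6 fell by 2.10 ± 0.19 (SE, limma adjusted p = 7.22e-06), lower on both day 1 arrays than on either EpiLC array. Cbr3 fell by 1.09 ± 0.09 (SE, adjusted p = 2.14e-06). Zbtb42 stood at 2.63 ± 0.34 (SE, adjusted p = 0.000101), with both means below the filter level. It entered the test only through the B day 1 arrays, so the count is 3 of 9 without it. Chdh rose by 1.81 ± 0.33 (SE, adjusted p = 0.00113) from an EpiLC mean below it. The other 6 were not called; of these Calcoco2 stood at −1.32 ± 0.60 (SE, adjusted p = 0.113) and Parp8 at 0.04 ± 0.21 (SE, adjusted p = 0.92). The median change of the 10 genes was −0.26, beside 0.05 for all genes.

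In the line labelled A, 5 of the 10 genes were called from EpiLCs to day 1, beside 6.1% of all genes. Cbr3 fell by 1.39 ± 0.09 (SE, limma adjusted p = 3.71e-07) and Zfp750 fell by 1.56 ± 0.24 (SE, adjusted p = 0.000383). Calcoco2 fell by 1.84 ± 0.60 (SE, adjusted p = 0.0336), and Chdh rose by 1.15 ± 0.33 (SE, adjusted p = 0.0183). Zbtb42 stood at 1.02 ± 0.34 (SE, adjusted p = 0.0379), below the filter level in both groups, and without it the count is 4 of 9. Only the calls of Cbr3 and Zfp750 held when each of the 4 arrays was left out in turn. Calcoco2 stood at −0.89 (limma adjusted p = 0.323) without day 1 replicate 2, at −1.90 (adjusted p = 0.0993) without EpiLC replicate 1 and at −1.79 (adjusted p = 0.12) without EpiLC replicate 2. Zbtb42 lost its call without any 1 of the 4, with adjusted p from 0.0893 to 0.16 by limma. Chdh lost its call without EpiLC replicate 1 (1.03, adjusted p = 0.0981) and without day 1 replicate 1 (0.96, adjusted p = 0.119). S100a6 stood at −0.94 ± 0.19 (SE, adjusted p = 0.00273) and Mybpc2 at −0.97 ± 0.29 (SE, adjusted p = 0.0205), short of the size limit. S100a6 was called without EpiLC replicate 1 (−1.08) or day 1 replicate 1 (−1.04), and Mybpc2 without EpiLC replicate 1 (−1.15) or day 1 replicate 2 (−1.10).

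On day 1 the line labelled A did not differ from the parental line by the test in any of the 10 genes, 0 of 10 (limma, 3 at an unadjusted p under 0.05) beside 0.0286% of all genes. The parental day 1 arrays may have had a part in choosing the genes; those of the line labelled A had none. The largest difference was that of Zfp750, −1.15 ± 0.24 (SE, adjusted p = 0.193, 95% interval −1.67 to −0.62), with both arrays below both parental ones and both means below the filter level. For Zc3h12a the difference was 0.02 (95% interval −0.55 to 0.58), for Mcf2 −0.06 (−0.46 to 0.34) and for S100a6 0.38 (−0.04 to 0.80). A test of whether the stage change differed between the line labelled A and the parental line called 0 of the 10 (limma, 4 at an unadjusted p under 0.05) and 0 of 14010 genes (652 unadjusted). Its largest values among the 10 were −1.61 ± 0.49 for Zbtb42 (SE, adjusted p = 0.982), −1.48 ± 0.34 for Zfp750 (SE, adjusted p = 0.674) and 1.16 ± 0.27 for S100a6 (SE, adjusted p = 0.726). Without Zbtb42, which entered only through the B day 1 arrays, both tests of this paragraph called 0 of 9.

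The stage change of the 3-factor line had the other sign from that of the parental line for some of these genes, given here as a description. Calcoco2 was 2.06 higher on day 1 than in EpiLCs in BP14A and lower by 1.32 to 2.27 in the other 4 lines. S100a6 was 0.86 higher on day 1 in BP14A, and lower by 0.80 to 2.10 elsewhere. Zbtb42 was 1.72 lower on day 1 in BP14A, and higher by 1.02 to 2.63 elsewhere. Cbr3, Chdh, Mcf2, Mybpc2 and Zc3h12a differed one way in all 5 lines and most in BP14A. Cbr3 stood at −3.60 beside −1.09 to −2.16 in the others, and Chdh at 3.75 beside 1.15 to 2.91. Mcf2 stood at −2.27 beside −0.25 to −1.19, and Mybpc2 at −2.78 beside −0.66 to −1.11. Zc3h12a and Parp8 differed by −0.40 to −0.27 and −0.66 to 0.04 between stages in the other 4 lines, and by −2.38 and −2.09 in BP14A.

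**Figure D5:**
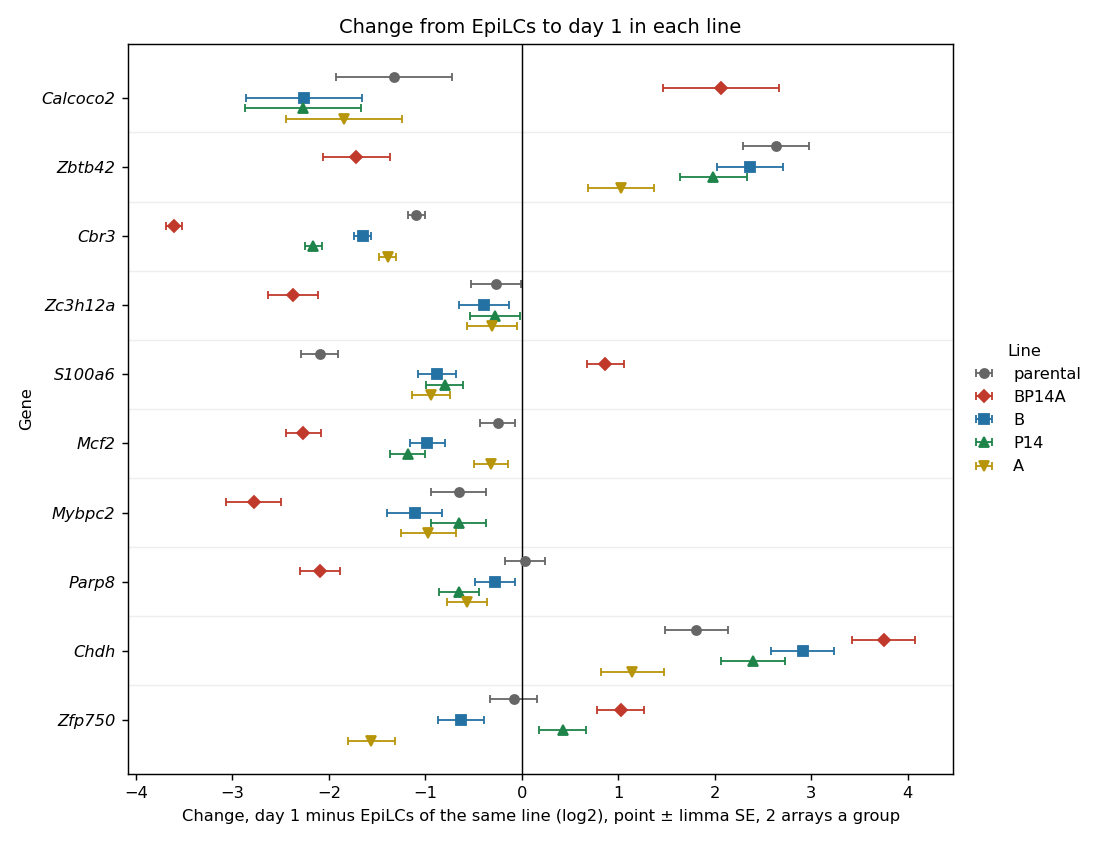
Change from EpiLCs to day 1 within each of the 5 lines (log2) for the 10 genes; points are differences of group means of 2 arrays and bars limma standard errors. BP14A (red) lies on the other side of 0 from the 4 other lines for Calcoco2, Zbtb42 and S100a6, and on the same side but farther out for Cbr3, Chdh, Mcf2, Mybpc2 and Zc3h12a. For Zfp750, P14 lies on the side of BP14A, and the parental line, B and the line labelled A on the other. For Parp8 only the parental line lies on the other side from BP14A, close to 0.

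Genes of related function, listed by role and without the 10, were compared with the parental line on day 1. In BP14A, 6.62% of all genes were called, 2.78% higher and 3.85% lower, and the median change of all genes was −0.01. Among 9 tested S100 proteins and annexin partners, 3 rose and 0 fell (median 0.07). These were S100a10 by 1.10 ± 0.08 (SE, limma adjusted p = 8.56e-07), S100a13 by 1.71 ± 0.15 (SE, adjusted p = 3.95e-06) and the S100a10 partner Anxa2 by 1.73 ± 0.15 (SE, adjusted p = 4.06e-06). Anxa2 rose in P14 as well, by 1.52 ± 0.15 (SE, adjusted p = 1.5e-05), and S100a10 and S100a13 stood at 0.96 ± 0.08 (SE, adjusted p = 3.67e-06) and 0.99 ± 0.15 (SE, adjusted p = 0.000421) in P14, just short of the size limit.

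Among 16 autophagy receptors and partners, 1 rose and 0 fell, the kinase Ulk1 by 1.72 ± 0.07 (SE, limma adjusted p = 1.05e-08; median 0.12). It rose in P14 too, by 1.36 ± 0.07 (SE, adjusted p = 1.18e-07).

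Grhl3, an epidermal transcription factor, was the 1 of 18 tested epidermal genes that rose in BP14A, from 3.27, below the filter level, to 6.59 (adjusted p = 0.000129 by limma), with 0 falling and a median of −0.04. In P14 Grhl3 rose by 2.21 ± 0.45 (SE, adjusted p = 0.00328) and Klf4 by 1.74 ± 0.52 (SE, adjusted p = 0.0297). Of the keratinocyte markers on day 1, Krt14 (3.98 against 3.81) and Sfn (5.87 against 5.68) had higher means in BP14A than in the parental line. Trp63 (3.07 against 3.57), Krt5 (3.74 against 4.82), Krt1 (5.06 against 5.60) and Krt10 (6.64 against 7.13) had lower ones. The summed level of all 6 markers was 7.79 to 7.90 in BP14A, beside 8.15 to 8.25 in the parental line, with none at 0. Their part in the Zfp750 difference was not tested. Of 21 BTB zinc finger genes 2 rose, Zbtb44 by 1.39 ± 0.14 (SE, adjusted p = 9.52e-06) and Zbtb10 by 1.38 ± 0.16 (SE, adjusted p = 4.29e-05), and Zbtb7b fell by 1.17 ± 0.26 to below the filter level (SE, adjusted p = 0.00536; median −0.02). Zbtb10 rose in B as well, by 1.07 ± 0.16 (SE, adjusted p = 0.000829), and Zbtb7b fell in P14 by 1.82 ± 0.26 (SE, adjusted p = 0.000287).

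Of 14 tested genes in a list of ADP-ribosyltransferases and Parg, Parp12 rose by 1.18 ± 0.23 (SE, limma adjusted p = 0.00226) and Parp9 fell by 1.08 ± 0.18 (SE, adjusted p = 0.000561), with a median of 0.08. Parp12 rose in P14 as well, by 1.43 ± 0.23 (SE, adjusted p = 0.000717). One list held carbonyl reduction genes and others, such as Hmox1, Gclm, Gclc and Txnrd1. Of its 13 tested genes 0 rose and 1 fell, Dcxr by 1.11 ± 0.16 (SE, adjusted p = 0.000245; median −0.32). Dcxr fell in P14 too, by 1.04 ± 0.16 (SE, adjusted p = 0.000523). None of 13 genes of messenger RNA decay and its inflammatory targets, 13 of choline and one-carbon metabolism and 12 of the sarcomere was called in BP14A by limma (medians 0.08, 0.12 and −0.01), with 6, 8 and 3 of them at an unadjusted p under 0.05. In the line labelled A, limma called 0 of the 129 genes of the 9 lists, with 9 at an unadjusted p under 0.05.

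By pattern over all 20 arrays, the genes most like each of the 10 were found by Pearson r among 14010 genes. These correlations are descriptions: the arrays fall into 2 stages and include the BP14A arrays that chose the genes. Cbr3 was nearest to Gins2 and Mob3b (r = 0.978 for both), Mcf2 to Ldha (0.972) and Tcfl5 (0.969), and Chdh to Dap (0.967) and Fstl1 (0.96). Mybpc2 was nearest to Syne2 (0.932) and Gbx2 (0.924), Parp8 to Ccnd1 (0.92) and Irf2bpl (0.911), S100a6 to Ung (0.904) and Top3b (0.903), and Zc3h12a to Cdh1 (0.902) and Tcfl5 (0.896). Calcoco2 (Fkbp9, 0.896, and H2-Bl, 0.835), Zbtb42 (Ahsa2, 0.878, and Khk, 0.867) and Zfp750 (Msrb2 and Poglut1, both 0.871) had less close matches. Tcfl5 was close to both Mcf2 and Zc3h12a.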

How the data were processed

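Biotin-labelled cRNA from total RNA was hybridised by the Affymetrix one-cycle protocol, per the labels. The authors deposited 1 log2 value per probe set and array; the log base was inferred from the range, and the normalization is not given in the sources used. Values were used as deposited, without detection calls. After 64 control probe sets were left out, 34945 had 1 gene, 932 several and 9160 none listed. Each gene was represented by its brightest probe set that passed the filter. A model with 10 group means was fitted to 20 arrays by limma 3.58.1 (R 4.3.3; 10 residual and 1.79 prior degrees of freedom) and tested on simulated data. Intervals are 95% limma intervals. Sequences were searched in Python 3.11.15, and figures drawn with matplotlib 3.10.9.

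The genes and lists were chosen with earlier results of these data known. Named genes are the 10, up to 3 called genes of each list by size in BP14A (named in other lines only beside that), and the 2 nearest by correlation; further names were picked with their values in view. A list of genes related to Mcf2 is not reported here. The 2 arrays of a group are called biological duplicates in the series text. Alternatives changed normalization, filter, probe set choice, arrays fitted, threshold and replicates. Replicate numbers were not treated as pairing arrays. Differences between replicates correlated from −0.06 to 0.20 over 45 pairs of groups, and 6 exceeded 0.1. This does not settle whether some groups share a replicate effect. The number of arrays limits precision.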

Additional observations from a re-analysis of the deposited data

Results flagged for a closer look

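For 3 genes every day 1 array moved one way from every EpiLC array in BP14A and the opposite way in the parental line. The stage change of BP14A minus that of the parental line was 3.39 for Calcoco2, 2.96 for S100a6 and −4.35 for Zbtb42. For Zbtb42 the means of both lines at both stages lay below the filter level, so its size is approximate. These differences were not tested, because the BP14A day 1 arrays chose these genes.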

How the results depend on the processing

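Of 968 recomputed values of the 10 genes in the tested comparisons, 947 kept their call, 15 lost it and 6 gained it. Of 1044 recomputed untested values, 952 moved by less than 1 SD, 92 by more, and 0 changed sign where the difference was at least 1. In the change of the line labelled A from EpiLCs to day 1, 5 of the 10 genes were called, and 3 without a filter, 3 with a filter at the 60th percentile (6 genes left), 2 under treat against 0.5, and 3 to 4 leaving out an array. The 0 of 10 called in B EpiLCs became 1 without parental EpiLC replicate 2. Counts over all genes were small between EpiLCs and unstable. The line labelled A against the parental line on day 1 had 4 calls, 1 after median centring, 2 after quantile normalization, 2 with probe sets averaged, 1 under treat and 0 with only its arrays fitted (991 genes at an unadjusted p under 0.05), and 1 to 12 leaving out an array. The difference in its stage change had 0 calls, 1 with only its arrays fitted, and 0 to 2 leaving out an array. BP14A EpiLCs had 2 calls, 1 after median centring, 0 under treat (56 unadjusted), 0 with only its arrays fitted (781 unadjusted), and 1 to 10 leaving out an array. B EpiLCs had 11, 6 under treat, 3 with only its arrays fitted and 12 to 26 leaving out an array; P14 EpiLCs had 5, 1 with only its arrays fitted, and 5 to 16; EpiLCs of the line labelled A had 4, 2 with probe sets averaged, 2 under treat, 0 with only its arrays fitted (734 unadjusted), and 3 to 9. BP14A against P14 on day 1 had 146 and 51 under treat, and B against the parental line 363, 204 under treat and 142 with only its arrays fitted. The highest counts in BP14A and P14 EpiLCs came without parental EpiLC replicate 1 (10 and 16), that in B EpiLCs without parental EpiLC replicate 2 (26), and that of the line labelled A on day 1 without parental day 1 replicate 2 (12). EpiLCs of the line labelled A had 9 without either their own replicate 2 or parental replicate 1. With replicate number as a block, the number of called genes among the 10 was unchanged in all 8 tested comparisons, and BP14A EpiLCs had 1 call in place of 2. In every setting that left out an array, the lone array was assumed to vary like the other groups. The cause of these shifts was not tested, beyond the smaller number of arrays or genes that a setting leaves.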
